A study of Mus musculus with 6 samples.

Results

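The genes of glucose use and the tricarboxylic acid (TCA) cycle were followed through 6 heart RNA-sequencing libraries. The list holds 43 genes, chosen by name, out of 45777 genes in the deposited table. It spans glucose and lactate carriers, hexokinase to pyruvate kinase, and the enzymes that make and remove the activator of phosphofructokinase. It also holds lactate dehydrogenase, pyruvate dehydrogenase with its control, glycogen, and 8 genes grouped as TCA cycle, of which Mdh1 encodes a cytosolic enzyme. All 43 were present and reached a mean of 10 counts, as did 18328 genes in all. The hearts came from BALB/c nude mice (CAnN.Cg-Foxn1nu/Crl), a strain that lacks a thymus and mature T cells. The mice were 6 weeks old at the start of the experiment, before treatment. Every animal, Control included, carried an MDA-MB-231 human breast tumour. The 6 groups were Control, the ginsenoside Rh2 at 20 mg/kg (Rh2-20 mg/kg) or 30 mg/kg (Rh2-30 mg/kg), doxorubicin (Dox, an anthracycline that damages the heart), and each Rh2 dose with Dox. Dox was given as 2 mg/kg on alternate days to a cumulative 22 mg/kg, and Rh2 daily, over 3 weeks from day 7 after tumour cells were placed. Each group was 1 library of RNA pooled from 5 hearts, so animals cannot be told apart and no group has a replicate.

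Glucose enters the heart cell through GLUT1 and the insulin-responsive GLUT4, is phosphorylated by hexokinase, and is committed to glycolysis by phosphofructokinase. Pyruvate is either exchanged with lactate or carried into mitochondria, where the pyruvate dehydrogenase (PDH) complex turns it into acetyl-CoA for the TCA cycle. PDH kinases switch the complex off and PDH phosphatases switch it on. The adult heart normally burns mostly fatty acids, and it takes a larger share of its energy from glucose under load or injury.

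The libraries held 86164411 to 90621002 counts, and the tissue that they sampled differed. A normalised count is the deposited count scaled by the TMM-adjusted library size to the mean library. All 8 cardiomyocyte markers were detected in every library, with summed normalised counts of 2369860, 2186176 and 1832946 at Rh2 doses of 0, 20 and 30 mg/kg without Dox, and 2397799, 2170786 and 2587054 at those doses with Dox. The atrial markers summed to 4040, 5490 and 147526 at Rh2 doses of 0, 20 and 30 mg/kg without Dox, and 33718, 43000 and 6664 at those doses with Dox. Rh2-30 mg/kg stood apart from the rest by its atrial RNA and by fat. Ucp1, the defining brown fat gene, had a normalised count of 6010 in it and of 0 to 12 in the others, and the white fat markers summed to 17620 in it and to 30 to 3285 elsewhere. Red blood cell markers summed to 934139 in Dox, the highest value, and with Dox present to 523906 and 146851 at Rh2 doses of 20 and 30 mg/kg. Fibroblast and macrophage sums were highest in Rh2-30 mg/kg (133695 and 33373) and lowest in Rh2-30 mg/kg + Dox (73739 and 16401). Endothelial sums ranged from 136553 to 178552. Skeletal muscle markers were near 0 everywhere, summing to 202 to 338. In pooled bulk tissue, fewer cells of a type and less RNA per cell cannot be told apart, and the part of these shifts in the results was not tested.

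In mm10, the 9 genes of the list that were past 1.5-fold in some library against Control lie as follows by their RefSeq spans: Slc16a1 at chr3:104638664-104658462, Slc16a3 at chr11:120948484-120959000, Pfkfb1 at chrX:150587445-150643878, Pfkfb2 at chr1:130689043-130729253, Pfkfb3 at chr2:11471430-11554071, Pdk2 at chr11:95026258-95041371, Pygb at chr2:150786796-150831748, Idh3a at chr9:54586511-54604662 and Idh2 at chr7:80094845-80118608. Promoter sequence from RefSeq (GRCm38.p6) was at hand for 40 of the 43 genes, in 63 windows of which the 250 bases upstream of the start were read. The core of the hypoxia response element, ACGTG, was searched on both strands and was in 27 of the 63 windows (42.9%), which belong to 18 genes, and in 16.6% of all 32851 windows. The E-box CACGTG, which contains that core on both strands, was in 9 windows (14.3%) of 7 genes and in 6.02% of all windows. AAGGTCA, a half-site bound by estrogen-related receptors, was in 2 windows (3.17%) and in 4.08% of all. Windows of 1 gene overlap in part, and a match describes letters, not a bound site. The windows of 4 genes whose levels are given in full are printed, 5′ to 3′ on the gene's strand. Each of these genes is past 1.5-fold in some library and holds the core. The same is true of Pdk2 and Slc16a3, whose windows are not printed. The 4 printed genes were chosen after the values were seen. Capitals mark the core or the E-box. The windows are chr1:130715822-130716071 on the minus strand for Pfkfb2, chr2:11553930-11554179 on the minus strand for Pfkfb3, chr3:104638414-104638663 on the plus strand for Slc16a1 and chr2:150786546-150786795 on the plus strand for Pygb.
Pfkfb2: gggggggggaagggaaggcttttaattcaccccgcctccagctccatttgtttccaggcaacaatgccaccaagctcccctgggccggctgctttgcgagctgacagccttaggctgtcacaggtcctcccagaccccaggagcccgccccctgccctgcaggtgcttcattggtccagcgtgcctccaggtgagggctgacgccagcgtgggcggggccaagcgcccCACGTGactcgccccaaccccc
Pfkfb3: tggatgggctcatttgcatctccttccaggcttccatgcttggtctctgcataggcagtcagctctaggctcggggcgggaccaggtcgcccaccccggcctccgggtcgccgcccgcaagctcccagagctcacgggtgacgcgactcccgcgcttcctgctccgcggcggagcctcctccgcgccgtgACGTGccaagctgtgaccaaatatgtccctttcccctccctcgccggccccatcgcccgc
Slc16a1: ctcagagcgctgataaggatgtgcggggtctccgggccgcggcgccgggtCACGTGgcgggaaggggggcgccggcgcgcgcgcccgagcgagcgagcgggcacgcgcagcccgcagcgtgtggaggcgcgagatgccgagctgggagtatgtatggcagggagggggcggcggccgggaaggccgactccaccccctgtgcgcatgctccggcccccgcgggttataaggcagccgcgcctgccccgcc
Pygb: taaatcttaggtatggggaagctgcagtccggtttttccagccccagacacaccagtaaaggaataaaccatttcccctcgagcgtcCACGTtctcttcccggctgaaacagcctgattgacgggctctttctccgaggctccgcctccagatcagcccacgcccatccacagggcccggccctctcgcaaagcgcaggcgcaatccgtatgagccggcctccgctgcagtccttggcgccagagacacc

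Over the whole list, the levels moved little. No gene of the list was past 2-fold against Control in any of the 5 treated libraries. Of all tested genes, 21.7% were past 2-fold in at least 1 of these libraries. All tested genes include scarce ones, down to the filter on low counts. Mean counts in the list ran from 188.8 (Slc16a3) to 246816 (Gapdh). The share among genes of like abundance was not computed, so the part of abundance in this contrast was not tested. The widest spans between the lowest and the highest library were 2.43-fold for Pfkfb2, 2.12-fold for Slc16a3 and 2.03-fold for Pfkfb3. Of the 43 genes, 30 had their highest normalised count in Rh2-30 mg/kg + Dox, and the lowest fell in Rh2-30 mg/kg for 19 and in Dox for 17. The shares of all genes with their extremes in these libraries were not computed. With 1 library a group, the log2 ratios below have no replicate check and carry no p-value. They are given with an exact binomial 95% interval that covers counting error only. A wider interval, which adds the dispersion between the 6 libraries, reaches 0.67 on the log2 scale to either side.

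**Figure D1:**
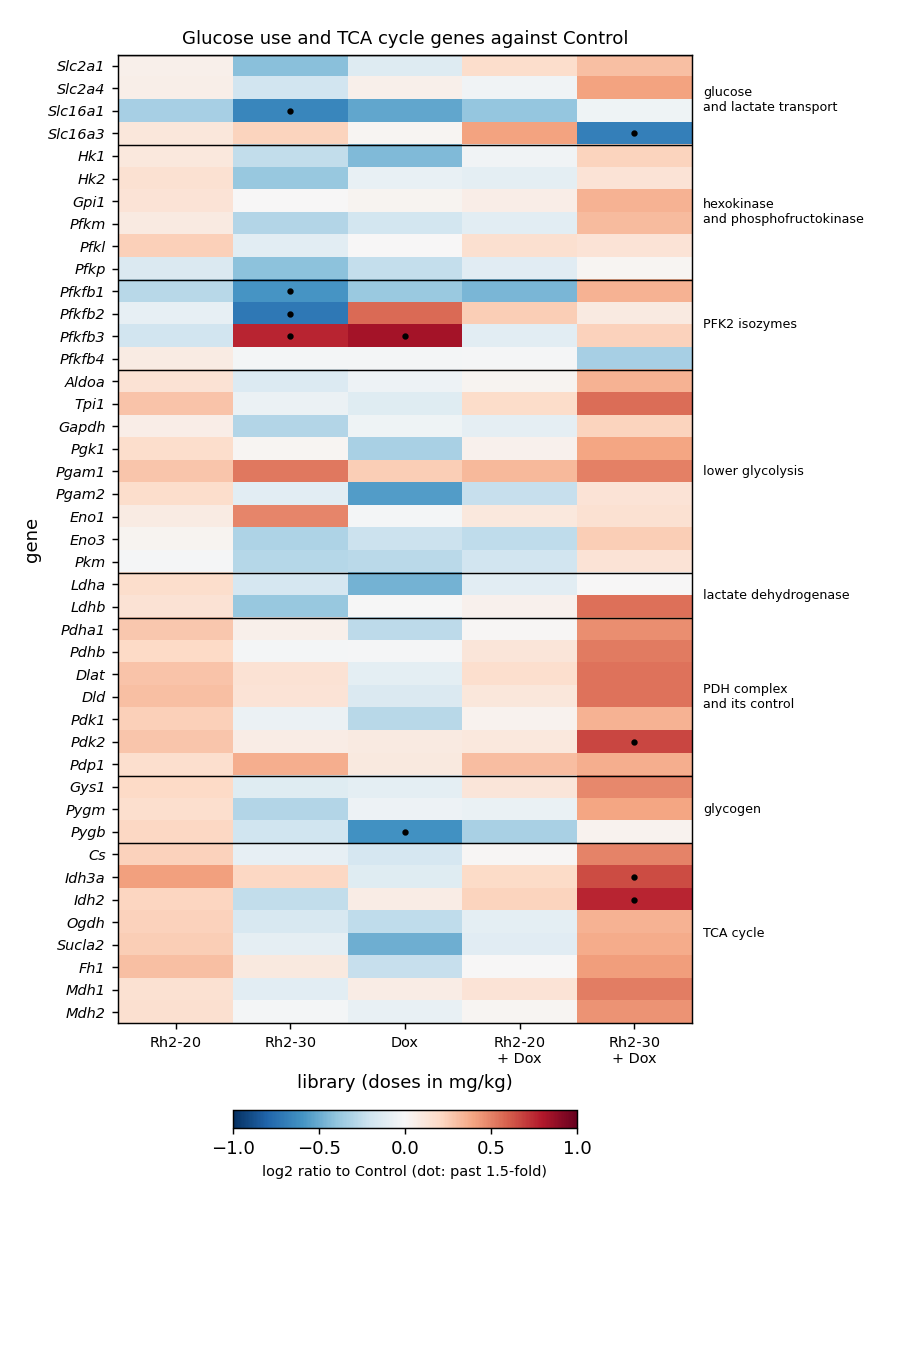
Log2 ratio of each of the 43 genes (vertical axis, grouped by role) to Control in the 5 treated libraries (horizontal axis), on a colour scale from -1 to 1, with a dot where a gene is past 1.5-fold. The Rh2-30 mg/kg + Dox column is higher than Control for 40 genes (31 when the libraries are centred on cardiomyocyte markers, which shifts all genes of a library alike), and dots are few. Of all genes, 48.7% are higher than Control in that library, and 29.5% after the centring.

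The genes of transport differed in opposite ways. Slc2a4 encodes GLUT4, and its normalised count was 8590, 8959 and 7520 at Rh2 doses of 0, 20 and 30 mg/kg without Dox, and 8894, 8385 and 11327 at those doses with Dox. The last library was high and the others lay close together. Slc2a1, which encodes GLUT1, was lowest at 797 in Rh2-30 mg/kg and highest at 1311 in the library with that dose and Dox. Slc16a1 encodes MCT1, a carrier of lactate and pyruvate. It read 14800, 11731 and 9407 at Rh2 doses of 0, 20 and 30 mg/kg without Dox, and 10341, 11343 and 14360 at those doses with Dox. Control and Rh2-30 mg/kg + Dox were the high libraries, and the log2 ratio of Rh2-30 mg/kg to Control was -0.65 (counting interval -0.69 to -0.62). Slc16a3, for the lactate exporter MCT4, was scarce at 182, 196 and 212 at Rh2 doses of 0, 20 and 30 mg/kg without Dox, and 184, 240 and 113 at those doses with Dox. The last library was the low one, with a log2 ratio to Control of -0.68 (-1.04 to -0.33).

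The hexokinase and phosphofructokinase genes kept within 1.5-fold of Control in every library. Hk1 gave 19562, 21035 and 16490 at Rh2 doses of 0, 20 and 30 mg/kg without Dox, and 14368, 19127 and 22860 at those doses with Dox, so that Dox was lowest. Hk2, the insulin-induced hexokinase, was lowest (18242) in Rh2-30 mg/kg and highest (26407) in Rh2-20 mg/kg. Pfkm, the muscle phosphofructokinase, gave 49574, 52877 and 40387 at Rh2 doses of 0, 20 and 30 mg/kg without Dox, and 43586, 46077 and 61594 at those doses with Dox. Pfkl, Pfkp and Gpi1 (glucose phosphate isomerase) spanned 1.27-fold, 1.35-fold and 1.27-fold over the 6 libraries. The median log2 ratio of these 6 genes to Control was -0.27 in Rh2-30 mg/kg and, with Dox at the same dose, 0.18.

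The PFK2 isozymes, which make and remove the allosteric activator of phosphofructokinase, moved apart from each other. Pfkfb2, the isozyme known for its phosphorylation in heart, had normalised counts of 20763, 19616 and 12648 at Rh2 doses of 0, 20 and 30 mg/kg without Dox, and 30732, 24569 and 22124 at those doses with Dox. Its 3 libraries with Dox were all above its 3 without, which held for no other gene of the list. Its log2 ratio to Control was 0.57 in Dox (0.54 to 0.59) and -0.72 in Rh2-30 mg/kg (-0.75 to -0.68). Pfkfb3, the inducible isozyme with high kinase activity, read 2943, 2579 and 4980 at Rh2 doses of 0, 20 and 30 mg/kg without Dox, and 5243, 2729 and 3455 at those doses with Dox. Rh2-30 mg/kg and Dox were the high libraries, at log2 ratios to Control of 0.76 (0.69 to 0.83) and 0.83 (0.77 to 0.90). Against the Dox library, Pfkfb3 was at -0.94 (-1.01 to -0.88) in Rh2-20 mg/kg + Dox and at -0.60 in Rh2-30 mg/kg + Dox. Pfkfb1 had 11438, 9423 and 7608 at Rh2 doses of 0, 20 and 30 mg/kg without Dox, and 8833, 8349 and 14548 at those doses with Dox. Its low point was Rh2-30 mg/kg, with a log2 ratio to Control of -0.59 (-0.63 to -0.55). Pfkfb4 was low throughout, at 510 in Rh2-30 mg/kg + Dox and 632 to 678 in the others. Rh2-30 mg/kg and Dox, where Pfkfb3 was high, also had the highest white fat marker sums, 17620 and 3285, against 30 to 1740 in the others. Their atrial sums were 147526 and 33718, with 43000 in Rh2-20 mg/kg + Dox and 4040 to 6664 in the rest. The part of these tissues in the Pfkfb3 levels was not tested.

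**Figure D2:**
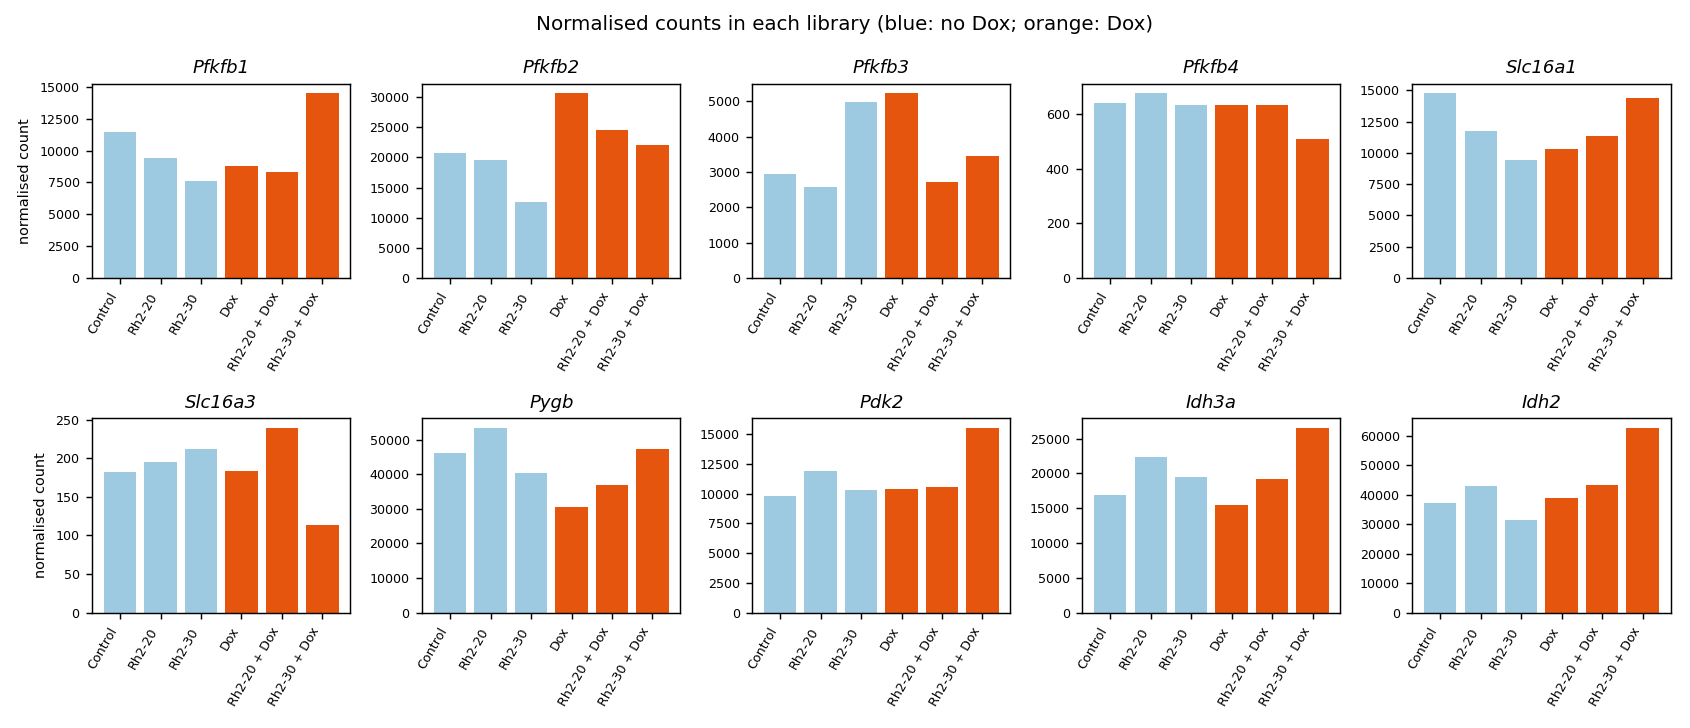
Normalised counts (vertical axes, from 0) of 10 genes in the 6 libraries, blue without Dox and orange with Dox, 1 bar a library and no error bar because no group has a replicate. Pfkfb2 is the panel where each orange bar (22124 to 30732) is above each blue bar (12648 to 20763).

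Lower glycolysis, from aldolase to pyruvate kinase, showed no gene past 1.5-fold against Control. Gapdh, the most abundant of the list, had a mean FPKM (fragments per kilobase, scaled to library size, a level per length) of 1465 and normalised counts from 204131 (Rh2-30 mg/kg) up to 291711 (that dose with Dox), a span of 1.43-fold. Pgam2, the muscle phosphoglycerate mutase, had 9780, 11057 and 9069 at Rh2 doses of 0, 20 and 30 mg/kg without Dox, and 6653, 8358 and 10756 at those doses with Dox, with Dox the low library at a log2 ratio of -0.56 (-0.60 to -0.51). Eno3, the muscle enolase, gave 39691, 40441 and 31999 at Rh2 doses of 0, 20 and 30 mg/kg without Dox, and 34228, 33319 and 47020 at those doses with Dox. The widely expressed forms stood out in Rh2-30 mg/kg, where Pgam1 was at a log2 ratio to Control of 0.53 and Eno1 at 0.49, while Pgam2 and Eno3 were at -0.11 and -0.31. Fibroblast, fat and atrial markers were also highest in that library. Aldoa, Tpi1, Pgk1 and Pkm spanned 1.34-fold to 1.65-fold over the 6 libraries. Gapdh, Ldha, Eno1, Aldoa, Pgk1, Tpi1, Pkm and Pgam1 have near-identical copies in the genome, so their counts depend on how such reads were assigned.

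Lactate dehydrogenase is made of a muscle-type subunit (Ldha) and a heart-type subunit (Ldhb). Ldhb had normalised counts of 30230, 33424 and 23237 at Rh2 doses of 0, 20 and 30 mg/kg without Dox, and 30091, 31183 and 44388 at those doses with Dox. Ldha was lowest in Dox at 17148 and highest in Rh2-20 mg/kg at 26980. The pair therefore differed most from each other in Rh2-30 mg/kg + Dox, where Ldhb was at a log2 ratio to Control of 0.55 and Ldha at 0.0016.

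The number of PDH genes above Control differed between libraries. In Rh2-30 mg/kg + Dox, all 7 were above Control at a median log2 ratio of 0.52, from 0.35 for Pdk1 to 0.67 for Pdk2. In Rh2-20 mg/kg all 7 were higher too, at a median of 0.27, and in Rh2-20 mg/kg + Dox at 0.12, while in Dox 2 of 7 were higher and the median was -0.10. At 30 mg/kg of Rh2 without Dox, 5 of 7 were higher, at a median of 0.07 and from -0.06 to 0.37. The shares of all genes above Control in these libraries, in the order named, were 48.7%, 50.1%, 50.6%, 49.1% and 53.5%. Pdk2, a PDH kinase, had 9805, 11901 and 10325 at Rh2 doses of 0, 20 and 30 mg/kg without Dox, and 10411, 10561 and 15549 at those doses with Dox. Only its last library was past 1.5-fold against Control (log2 0.67, 0.63 to 0.70). Pdha1, the catalytic subunit of the complex, ran from 44740 in Dox to 74061 in Rh2-30 mg/kg + Dox. Dlat and Dld, the core and the flavoprotein subunit, went from 10563 to 16450 and from 20793 to 33404 between the same libraries. The phosphatase gene Pdp1 was lowest in Control (2059) and highest in Rh2-30 mg/kg (2654). Cardiomyocyte markers were at a median log2 ratio to Control of 0.18 in Rh2-30 mg/kg + Dox. At 20 mg/kg without and with Dox they were at -0.13 and -0.16. The part of cardiomyocyte content in the PDH levels was not tested.

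Of the glycogen genes, Pygb, a glycogen phosphorylase first known from brain, was past 1.5-fold lower in Dox. Its counts were 46280, 53535 and 40415 at Rh2 doses of 0, 20 and 30 mg/kg without Dox, and 30480, 37002 and 47421 at those doses with Dox, and the log2 ratio of Dox to Control was -0.60 (-0.62 to -0.58). Pygm, the muscle phosphorylase, gave 50243, 56297 and 40962 at Rh2 doses of 0, 20 and 30 mg/kg without Dox, and 48394, 47952 and 66140 at those doses with Dox, with no such dip in Dox. Gys1, the muscle glycogen synthase, was lowest (6734) in Rh2-30 mg/kg and highest (10207) when Dox was added at that dose.

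Of the TCA cycle genes, all 8 were above Control in Rh2-30 mg/kg + Dox (median log2 ratio 0.47) and in Rh2-20 mg/kg (0.23), 6 of 8 in Rh2-20 mg/kg + Dox (0.02), 2 of 8 in Dox (-0.14) and 2 of 8 in Rh2-30 mg/kg (-0.08). Idh2, the mitochondrial NADP-dependent isocitrate dehydrogenase, had 37081, 43034 and 31346 at Rh2 doses of 0, 20 and 30 mg/kg without Dox, and 39048, 43236 and 62770 at those doses with Dox. The last library stood well above the others, at a log2 ratio to Control of 0.76 (0.74 to 0.78). Idh3a, a subunit of the NAD-dependent enzyme, had 16873, 22420 and 19506 at Rh2 doses of 0, 20 and 30 mg/kg without Dox, and 15510, 19224 and 26586 at those doses with Dox, for a log2 ratio of 0.66 (0.63 to 0.68) in the last. Sucla2, a subunit of succinyl-CoA synthetase, was lowest in Dox (16660) and highest in Rh2-30 mg/kg + Dox (30207). Cs, the citrate synthase that starts the cycle, ran from 51513 in Dox to 81560 in Rh2-30 mg/kg + Dox, and Ogdh, Fh1, Mdh1 and Mdh2 spanned 1.44-fold to 1.57-fold.

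**Figure D3:**
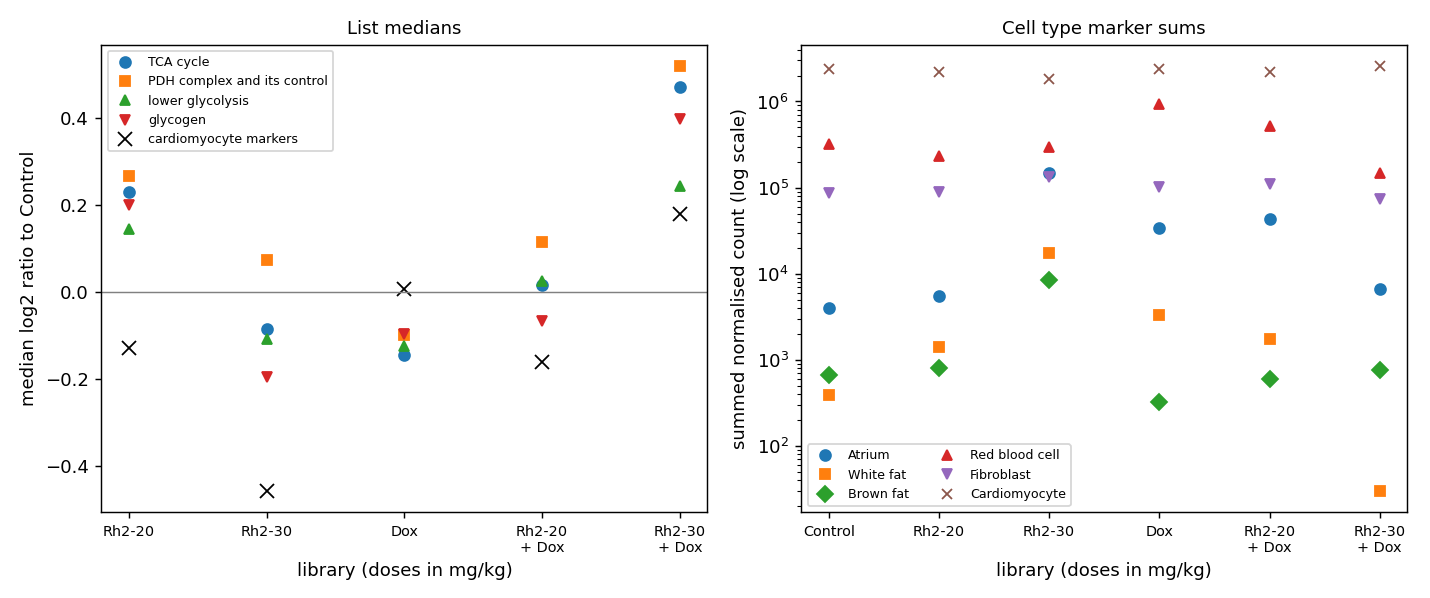
Left, median log2 ratio to Control (vertical axis) of 4 groups of genes and of the 8 cardiomyocyte markers in the 5 treated libraries. Right, summed normalised counts of 6 marker lists (vertical axis, log scale) in the 6 libraries. The PDH and TCA cycle medians peak in Rh2-30 mg/kg + Dox (0.52 and 0.47), where the cardiomyocyte markers are also highest (0.18); in Rh2-30 mg/kg the atrial and fat sums are highest and those markers lowest (-0.46).

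Set against Control one library at a time, the counts of genes past 1.5-fold were small. They lay under the share of all tested genes except for those lower in Rh2-30 mg/kg. The shares of all genes include scarcer genes than the list holds and were not matched for abundance. None of the 43 (0) was past 1.5-fold higher and 0 lower in Rh2-20 mg/kg, where 6.95% and 6.62% of all genes were. In Rh2-30 mg/kg 1 was higher (Pfkfb3) and 3 were lower (Pfkfb1, Pfkfb2 and Slc16a1), beside 16.1% and 5.67%. In Dox 1 was higher (Pfkfb3) and 1 lower (Pygb), beside 11% and 8.58%. In Rh2-20 mg/kg + Dox the counts were 0 and 0, beside 10.3% and 7.96%. In Rh2-30 mg/kg + Dox 3 were higher (Pdk2, Idh3a and Idh2) and 1 lower (Slc16a3), beside 8.81% and 13.9%. The wider interval lay above 0 for 1 gene, Pfkfb3, in Rh2-30 mg/kg and in Dox, beside 10.3% and 6.56% of all genes. In Rh2-30 mg/kg + Dox it did so for 1 gene, Idh2, beside 4.7%. In Rh2-20 mg/kg without and with Dox it did so for 0 genes, beside 3.16% and 5.89%. It lay below 0 for 1 gene, in Rh2-30 mg/kg, and the share of all genes below 0 was not computed. Direction at any size was less even. Higher than Control were 37 of 43 at 20 mg/kg of Rh2 (all genes 50.1%), 13 at 30 mg/kg (53.5%), 11 in Dox (49.1%), 25 when Dox came with Rh2-20 mg/kg (50.6%) and 40 when it came with Rh2-30 mg/kg (48.7%). These comparisons share the Control library. Centring each library on its cardiomyocyte markers shifts every gene of a library alike, so it changes signs and counts but not the place of the list among all genes. At 30 mg/kg of Rh2, 40 of 43 were then higher, beside 90.9% of all genes, and 8 were past 1.5-fold higher, beside 40.5%. The list's median log2 ratio there was 0.35 against 0.49 over all genes, and before centring -0.11 against 0.03, a difference of -0.14 both times. With Dox at the same dose, 31 were then higher, beside 29.5% of all genes, with a median of 0.17 against -0.19 over all genes, and no gene of the list was past 1.5-fold higher, beside 6.03%.

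Whether Rh2 altered the heart that receives Dox was read from each Rh2 + Dox library against the Dox library. Both comparisons share that Dox library, which held the lowest normalised count for 17 of the 43 genes (share of all genes not computed). In Rh2-20 mg/kg + Dox no gene was past 1.5-fold higher and 1 was lower (Pfkfb3), beside 6.93% and 7.40% of all genes. At any size 35 of 43 were higher (50.7% of all), with a median log2 ratio of 0.14 and all 7 PDH and all 8 TCA cycle genes among them. The wider interval lay above 0 for 0 of the 43, beside 3.02% of all genes. Against Control, the Rh2-20 mg/kg + Dox library had 25 of 43 higher (50.6% of all), at a median of 0.02. In Rh2-30 mg/kg + Dox 16 of 43 were past 1.5-fold higher, beside 8.08% of all genes, and 2 were lower (Pfkfb3 and Slc16a3), beside 14.3%. The 16 were 6 of the TCA cycle (Cs, Idh3a, Idh2, Ogdh, Sucla2 and Fh1), 4 of the PDH group (Pdha1, Dlat, Dld and Pdk1), 3 of lower glycolysis (Tpi1, Pgk1 and Pgam2), Hk1, Pfkfb1 and Pygb. At any size 39 were higher (46.8% of all genes) and the median was 0.50 against -0.02 over all tested genes. Sucla2 led with a log2 ratio of 0.86 (0.83 to 0.89), followed by Idh3a at 0.78 and Pdha1 at 0.73. The wider interval lay above 0 for 9 of the 43, beside 4.04% of all genes. In the same comparison 7 of 8 cardiomyocyte markers were higher, at a median of 0.21, and the red blood cell sum was 0.157 of that in Dox. With centring on cardiomyocyte markers 36 of 43 were higher, beside 26.3% of all genes, and the median was 0.28 against -0.24 over all genes, so that the list lay 0.52 above all genes with or without it. After the centring Sucla2 was past 1.5-fold higher (1 of 43, beside 4.29%), and Pfkfb2, Pfkfb3 and Slc16a3 were past it lower (3 of 43, beside 22.4%).

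Dox was then compared with no Dox at each Rh2 dose, in 3 pairs that share no library (these pairs were set up after the data were seen). The list was lower with Dox at Rh2 doses of 0 and 20 mg/kg and higher at 30 mg/kg. Median log2 ratios were -0.10, -0.14 and 0.47, and 11, 9 and 37 of 43 genes were higher. Of all genes, 49.9% were higher at 20 mg/kg and 46.9% at 30 mg/kg. In both the first pairs 29 of 43 were lower with Dox, where 33.2% of all genes were, and 28 of them were higher at 30 mg/kg, a course that 15.6% of all genes took. The pair at 30 mg/kg sets the library lowest in cardiomyocyte markers against the highest, with all 8 markers higher with Dox at a median log2 ratio of 0.67. Centred on those markers, the list's median in that pair was -0.20 and that of all genes -0.70, where they were 0.47 and -0.03 before, so that the list lay 0.50 above all genes either way. After the centring 6 of 43 were higher, beside 5.25% of all genes, 6 were past 1.5-fold lower, beside 60.9%, and 3 took the course described, beside 1.01%. Idh2 had the highest log2 ratio in that pair, with a counting interval of 0.98 to 1.02. Over all 3 pairs Pfkfb2 and Idh2 were higher each time (2 of 43, beside 15.9% of all genes) and Pfkfb4 was lower (1 of 43, beside 17.6%). Pfkfb2 alone had no overlap between the libraries with Dox and those without (1 of 43 higher, beside 7.85%), and 0 were lower without overlap, beside 9.16%.

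**Figure D4:**
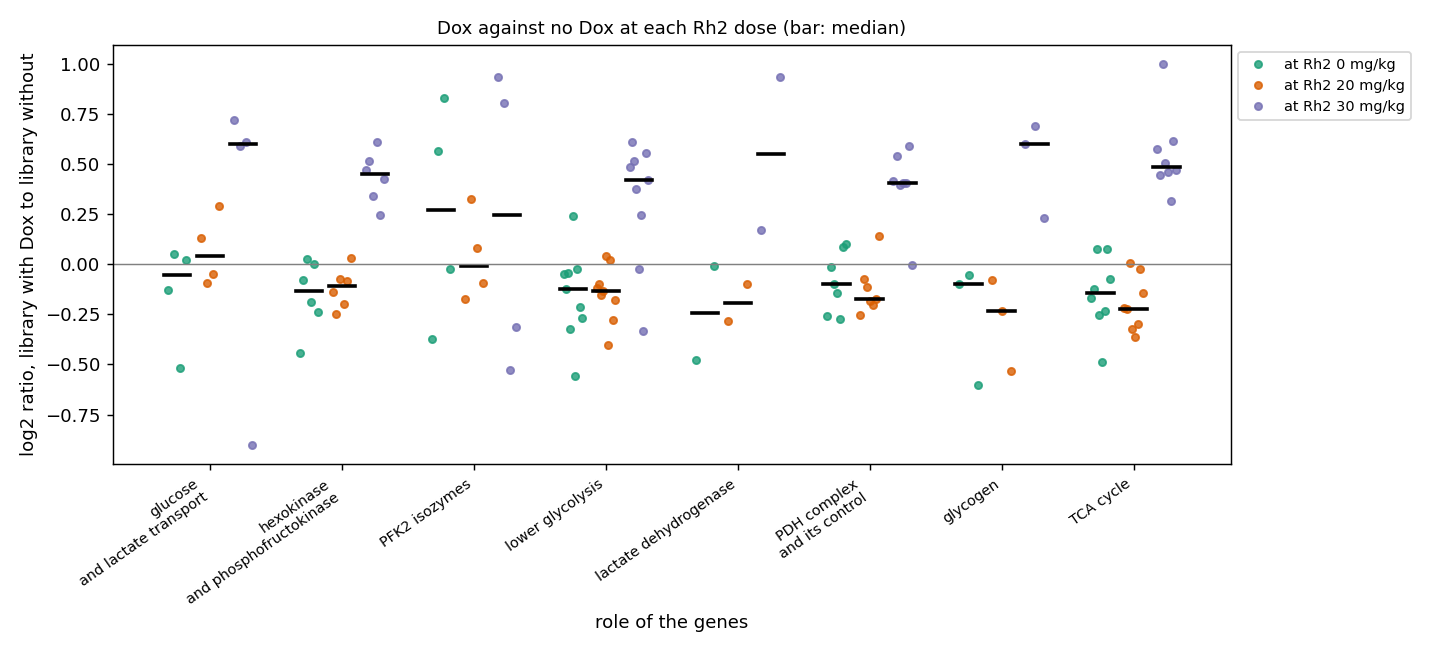
Log2 ratio of the library with Dox to the library without (vertical axis) for each gene, grouped by role (horizontal axis), at Rh2 doses of 0, 20 and 30 mg/kg, with the median as a black bar. Most points lie below 0 at 0 and 20 mg/kg and above 0 at 30 mg/kg, where centring on cardiomyocyte markers would lower all genes alike by 0.67 and leave 6 of the 43 above 0; the PFK2 isozymes scatter to both sides.

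In the fits over all 6 libraries with edgeR's quasi-likelihood test and Benjamini-Hochberg adjustment, no gene of the list passed an adjusted p of 0.05. For the 3 libraries with Dox against the 3 without, 5 of 18328 genes passed (0.0273%). At an unadjusted p under 0.05 there was 1 of the 43, Pfkfb2, beside 10.1% of all genes, with a log2 fold change of 0.55 (adjusted p = 0.453) and 3 of 3 pairs in that direction. DESeq2's Wald test passed 425 genes and again none of the list. For the 4 libraries with Rh2 against the 2 without, 0 genes (0%) passed in edgeR and 242 in DESeq2, none of them in the list. At an unadjusted p under 0.05 there were 3 of the 43, Pdp1 (log2 fold change 0.25), Idh3a (0.44) and Dlat (0.34), each with an adjusted p of 0.568 to 0.569, beside 8.74% of all genes. The list's median log2 fold change with Rh2 was 0.21, against 0.01 over all genes. In the list 37 of 43 were positive, and the share of all genes that were positive was not computed. Without the Dox library the list's median was 0.05, and without Control 0.33. For the interaction of Rh2 with Dox, 0 genes (0%) passed in edgeR, and 38 in DESeq2 with none in the list. Slc16a1 was the 1 gene at an unadjusted p under 0.05 (log2 difference 0.80, adjusted p = 0.988), beside 2.71% of all genes. With 6 libraries of 6 conditions, no p-value rests on replicates. For Dox, the p-values measure the spread between single libraries that also differ in Rh2 dose. The Rh2 fit holds a term for Dox, so its spread is what remains after both drugs, differences between Rh2 doses included. In the interaction fit, the spread comes only from the different Rh2 doses within each Dox state. The Control and Dox libraries add none to it, so the p-value of Slc16a1 was measured against a dose difference.

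Isozyme makeup was compared per length, as the share of each gene in the summed FPKM of its step. Among the listed genes of each step, the leading isozyme was the same in all 6 libraries for 8 of 10 steps. Slc2a4 held 86.4% to 89.7% of the transporter pair, Pfkm 77.0% to 82.2% of phosphofructokinase, Pgam2 89.1% to 93.4% of the mutase and Slc16a1 96.7% to 98.8% of the lactate carriers. Eno3 held 60.7% in Rh2-30 mg/kg and 67.8% to 74.3% in the others. Ldhb held 61.4%, 60.8% and 57.9% at Rh2 doses of 0, 20 and 30 mg/kg without Dox, and 68.7%, 63.8% and 69.9% at those doses with Dox. Each library with Dox thus had a larger heart-type share than each library without. Pygm showed the same order, with 59.2%, 58.4% and 57.5% without Dox and 68.0%, 63.4% and 65.1% with it, each by rising Rh2 dose. In each of the remaining steps the shares with and without Dox overlapped. How often such an order arises over all genes was not computed, and these shares carry no test. Pdk2 held 74.8% to 79.5% of the pair with Pdk1. Pdk4, a PDH kinase gene outside the list, was left out of that step. Its FPKM was 65.4, 74.2 and 90.4 by rising Rh2 dose without Dox, and 26.2, 31.9 and 45.2 with Dox. Pdk2 had 36.3, 46.4 and 42.2 without Dox, and 39.1, 41.2 and 57.2 with Dox. Pdk4 was thus above Pdk2 in each library without Dox and below it in each library with Dox. The lead passed between isozymes for hexokinase, where Hk2 held 54.1% in Dox and 45.7% to 48.8% in the others, and for PFK2. There Pfkfb1 led without Dox, with 52.5%, 48.5% and 48.2% by rising Rh2 dose, and in Rh2-30 mg/kg + Dox with 56.4%. Pfkfb2 led with 55.0% in Dox alone and 53.3% with 20 mg/kg of Rh2 added. Pfkfb3 reached at most 12.6%, in Rh2-30 mg/kg.

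**Figure D5:**
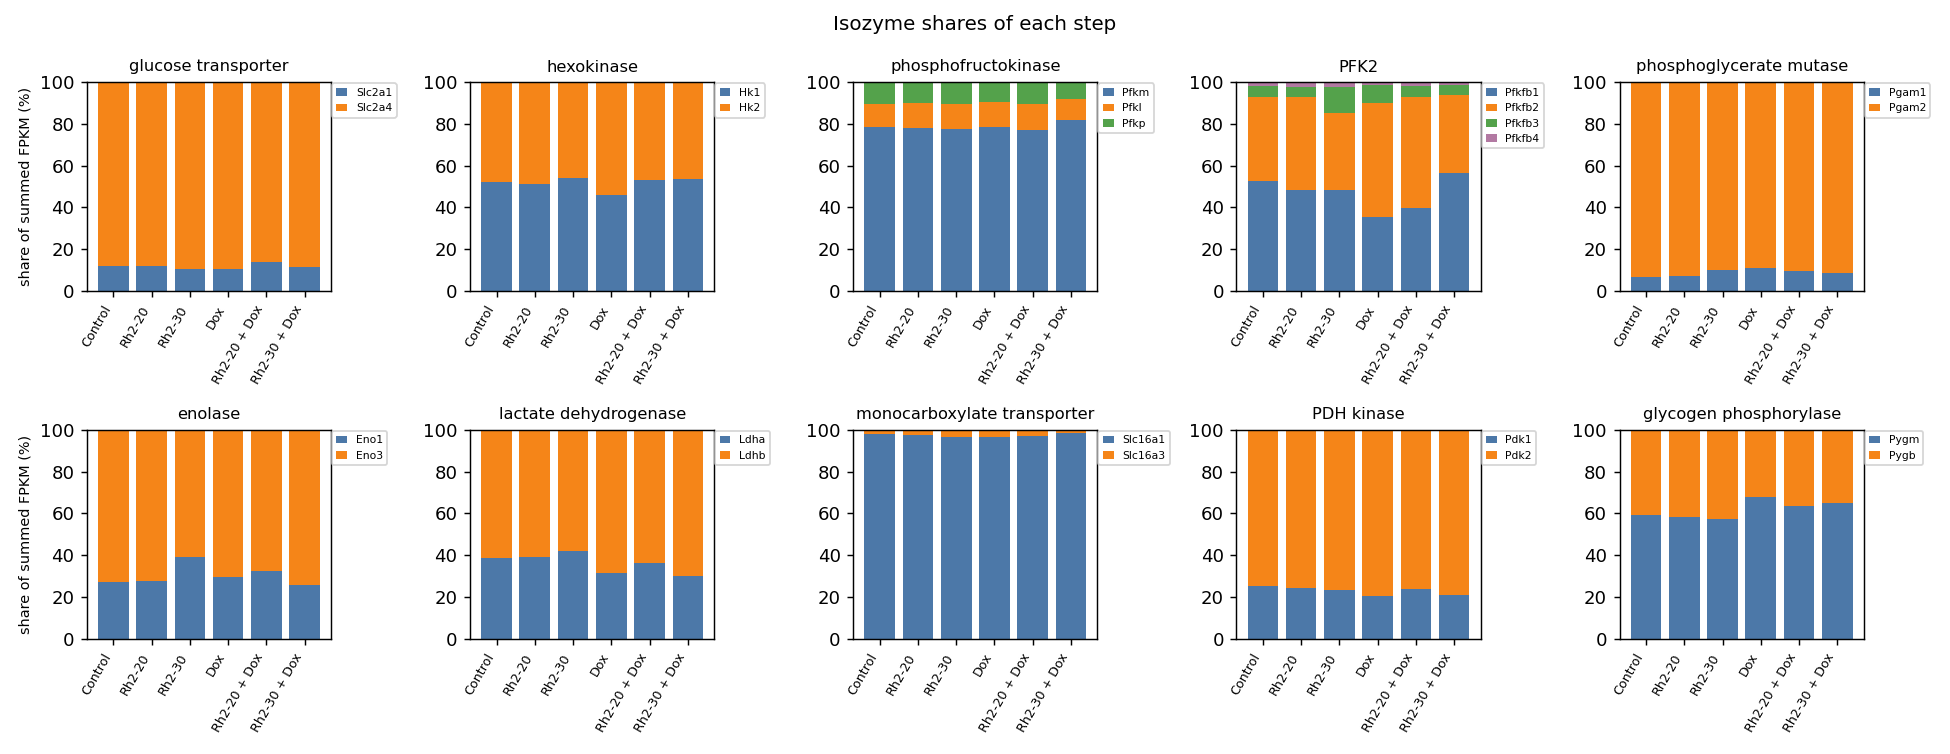
Share of each isozyme in the summed FPKM of its step (vertical axes, percent, from 0 to 100) in the 6 libraries, for 10 steps. PFK2 is the step whose makeup differs most, with Pfkfb1 between 35.3% (Dox) and 56.4% (Rh2-30 mg/kg + Dox).

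Among 83 other tested genes of these pathways, none passed an adjusted p of 0.05 in the edgeR fit for Dox, for Rh2 or for their interaction, where 10, 3 and 0 were under an unadjusted 0.05. By DESeq2, Phka1, Ppargc1a and Pdk4 passed for Dox, and none of the 83 passed for Rh2 or for the interaction. The 12 other genes grouped as TCA cycle, with the cytosolic forms Aco1 and Idh1 among them, had median log2 ratios to Control of 0.43 (Rh2-30 mg/kg + Dox) and -0.17 (Dox). These were close to those of the 8 listed. The 7 pentose phosphate genes, by contrast, were all above Control in Rh2-30 mg/kg (median 0.46), and 2 of 7 were above it in Rh2-30 mg/kg + Dox (-0.13). The shares of all genes above Control there were 53.5% and 48.7%. Slc2a3, the transporter GLUT3 of neurons and blood cells, had 263, 261 and 453 at Rh2 doses of 0, 20 and 30 mg/kg without Dox, and 1297, 1775 and 228 at those doses with Dox. Its high libraries were Dox and Rh2-20 mg/kg + Dox, which also had the highest red blood cell sums, 934139 and 523906. Of these libraries, the one with the lower sum had the higher Slc2a3. The part of red blood cells in the Slc2a3 levels was not tested. Irs2, an adaptor of the insulin receptor, had 3629 in Control and 1225 to 2031 in the 5 treated libraries. Phkg1, the muscle phosphorylase kinase subunit, ran from 701 in Rh2-30 mg/kg + Dox to 3129 in Rh2-30 mg/kg. Hkdc1, Aldoc and Fbp1 also met the rule for naming, at normalised counts of 0 to 80. Pdk4, the PDH kinase induced by fasting and fatty acids, did not meet it and was picked after its values were seen. It had 26949, 29052 and 33688 at Rh2 doses of 0, 20 and 30 mg/kg without Dox, and 10620, 12491 and 18749 at those doses with Dox. The libraries with Dox were all below those without, with a log2 fold change of -1.10 that did not pass adjustment (adjusted p = 0.216 in edgeR).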

How the data were processed

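RNA of 6 heart libraries, 1 per condition and each pooled from 5 hearts, was taken from the authors' gene table. Per the study's methods and the submitters' processing notes, reads were made with bcl2fastq 2.20.0, trimmed with Trimmomatic, aligned to mm10 with HISAT2 2.1.0 and quantified per gene with StringTie 2.1.3b on the UCSC annotation. The authors deposited whole-number read counts without normalization. The authors also deposited FPKM values, per kilobase and scaled to the mapped fragments, and TPM values, which are not used here.

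A mean of 10 or more counts was required (18328 genes) in R 4.3.3 with edgeR 4.0.16 (TMM, quasi-likelihood test, two-sided, Benjamini-Hochberg adjustment) and DESeq2 1.42.0 as an alternative. Single libraries were compared as log2 ratios with a prior count of 0.5, with 95% intervals from the exact conditional binomial distribution and wider ones from a common dispersion of 0.0285. These intervals cover counting error, or that and the spread of unlike libraries. Libraries were grouped by their labels. Depth, 86164411 to 90621002 counts, measures abundant genes to a few percent by counting alone. Steps were tested on simulated data. Figures used matplotlib 3.10.9.

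Members and lists were chosen with earlier results of these data known. Given in full are members whose libraries with and without Dox do not overlap, those past 1.5-fold in at least 1 library against Control, and the leading isozymes of each step. Of other pathway genes, those past 1.5-fold in at least 3 of 5 libraries are named. Some of these genes are not reported here. Alternatives were DESeq2's size factors, no filter, other priors, FPKM plus 1 or 0.1, Rh2 dose as a block, no Dox term, each library left out, and, added after seeing the data, centring on the median of cardiomyocyte markers.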

Additional observations from a re-analysis of the deposited data

How the results depend on the processing

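The labels carry no replicate numbers, so pairing was possible by Rh2 dose only. With the Rh2 dose as a block, 0 genes passed for Dox in place of 5, and none of the list in either. No gene of the list passed an adjusted p of 0.05 in any fit or alternative.

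DESeq2's Wald test passed 425 genes for Dox, 242 for Rh2 and 38 for the interaction, and put 7 and 2 genes of the list under an unadjusted p of 0.05 for Rh2 and the interaction, where edgeR gave 3 and 1. DESeq2's size factors gave 0 for the interaction.

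Leaving out 1 library moved the genes passed for Dox from 0 to 14 (14 without Rh2-30 mg/kg + Dox, 3 without Rh2-30 mg/kg and 0 without any of the others), the listed genes under an unadjusted 0.05 from 0 to 3 for Dox and from 0 to 9 for Rh2 (0 without Dox, 9 without Rh2-30 mg/kg), and the list's median log2 fold change from -0.0431 to 0.159 for Dox and from 0.0473 to 0.327 for Rh2. The negative Dox median came without Rh2-30 mg/kg + Dox.

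FPKM plus 1 or 0.1 turned the list's median in Rh2-30 mg/kg against Control to 0.041 and 0.0411, and lowered that of Rh2-30 mg/kg + Dox against Rh2-30 mg/kg to 0.31 and 0.32. FPKM plus 0.1 moves the median of all genes by 0.12 in Rh2-30 mg/kg, where the list lies under all genes by each of these measures.

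Centring on cardiomyocyte markers gave medians of 0.29 and 0.35 for Rh2 at 20 and 30 mg/kg against Control, 0.18 and 0.17 for the same doses with Dox against Control, 0.28 and 0.28 for those against the Dox library, and -0.20 for Rh2-30 mg/kg + Dox against Rh2-30 mg/kg. Genes past 1.5-fold became 8 in Rh2-30 mg/kg (4 before) and, for the same dose with Dox, 1 against Control (4 before) and 4 against the Dox library (18 before). This centring shifts all genes of a library alike and moves their median by up to 0.67, in Rh2-30 mg/kg + Dox against Rh2-30 mg/kg, so the list's distance from all genes is the same. Beyond that construction, the cause was not tested. Of single genes against Control, Pfkfb1, Pfkfb2 and Slc16a1 in Rh2-30 mg/kg were within 1.5-fold by FPKM and by the centring, Pygb in Dox and Slc16a3 in Rh2-30 mg/kg + Dox by FPKM, and Pdk2, Idh3a and Idh2 in Rh2-30 mg/kg + Dox by the centring. Eno1 and Pgam1 in Rh2-30 mg/kg and Pfkfb2 in Dox were past 1.5-fold higher by FPKM. For Rh2-30 mg/kg + Dox against Rh2-30 mg/kg, 4 genes were past 1.5-fold higher by FPKM (13 before), and 0 higher and 6 lower by the centring. Without a filter on low counts, 24.2% of all genes were past 1.5-fold in Rh2-20 mg/kg against Control (13.6% with it), and with Dox added 28.1% against Control (18.3%) and 25.8% against Dox (14.3%). By normalised counts in place of FPKM, 10 of 10 steps had 1 leading isozyme among their listed genes in all libraries, in place of 8.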
